A study of Mus musculus with 10 samples.

Results

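Many noncoding genes begin just upstream of a protein-coding gene and run away from it on the other strand, so that both are read outwards from the same promoter region. Such divergent noncoding genes were examined in P4 mouse testes with and without *Dis3* in the germ line. A gene was taken when its biotype was lncRNA (long noncoding RNA) or TEC (a transcript that still awaits experimental evidence), when its mean over the 10 libraries was at least 10 raw counts, and when its annotated 5′ end lay 0 to 3000 bp upstream of the 5′ end of a protein-coding gene on the opposite strand. *Gas5*, the *Snhg* genes, *H19*, *Meg3*, *Rian*, *Kcnq1ot1* and *Airn* were left out by name. The rule took 420 of the 12202 lncRNA and TEC genes in the table, 357 of them lncRNA and 63 TEC. They faced 418 coding genes, each called here the coding partner of its noncoding gene. The members were thus selected on position and on their level in the pooled libraries, and the level over both groups is not a finding here. *Gm15492* and *Gm38026*, with means of 10 and 10.1 raw counts, lay just inside that limit, and *Gm44899* and *Gm26645*, with 9.7 and 9.9, just outside it.

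RNA polymerase II starts in both directions at most mammalian promoters. The upstream antisense products, called PROMPTs (promoter upstream transcripts) where they are short-lived and unannotated, are normally ended early and destroyed in the nucleus. The RNA exosome, a multi-subunit 3′ to 5′ ribonuclease, does much of this work, and DIS3 is its main catalytic subunit in the nucleoplasm. Some divergent products are spliced, stable and annotated as lncRNA genes, often named after the coding neighbor with the ending "os" for opposite strand.

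Bulk RNA-seq of whole testes at P4, when the germ cells are early spermatogonia and most cells are somatic, was done for 5 control and 5 *Dis3* cKO mice of the strain labelled B6D2F1. The cKO mice carried 1 floxed and 1 deleted *Dis3* allele with *Ddx4*-Cre (labelled Dis3 KO), and controls (labelled Dis3 WT) were siblings from the same litters. *Ddx4*-Cre acts in germ cells only, so the somatic cells of cKO testes kept 1 working floxed allele beside the deleted one. Which cells the changes below come from was not tested. Each library came from both testes of 1 mouse. In such a tissue, fewer cells of a type and less RNA per cell cannot be told apart.

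Total gene counts ranged from 28538849 to 41104912 per library. *Dis3* itself, the targeted gene, was at 4115, 4296, 4314, 5161 and 5091 normalized counts in control and 1385, 1372, 1362, 1641 and 1709 in cKO libraries, which did not overlap (log2 fold change -1.62, SE 0.09, adjusted p = 3.78e-07). A list of 8 germ cell markers summed to 22919 to 28847 normalized counts in control and to 15227 to 20440 in cKO, with 5 of the 8 called lower. *Ddx4* itself, at means of 3134 and 2623, was not called, and neither were *Gfra1* and *Zbtb16*. The 8 Sertoli cell markers summed to 107347 to 117052 in control and 114514 to 146774 in cKO, which overlapped, with 1 of the 8 called higher (*Rhox8*, at means of 33614 and 47093). In both groups replicates 1 to 3 resembled each other more than replicates 4 and 5, a split for which the labels name no batch, and values within each are given where they bear on a result. Of 27 genes of the nuclear exosome and its cofactors, 26 were tested. Of these, 1 was called higher (*Zfc3h1*, log2 fold change 0.33) and 4 were called lower, *Dis3*, *Exosc8*, *C1d* and *Rbm7*. Over all genes tested, 4.42% were called higher and 3.48% lower.

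The promoters of the noncoding genes with the largest increases in cKO, and of those with the highest levels per length, show how closely the starts of a pair lie. Windows reach from 250 bases before to 50 after a gene's RefSeq start on GRCm38.p6, the build of the count table's positions, and are read on that gene's strand. Capitals mark the bases from the 5′ end of the noncoding gene to the 5′ end of its coding partner, as annotated in the count table, as far as the window holds them. The window of *Espl1*, at chr15:102296043-102296342 on the plus strand, holds both starts of the pair with the largest increase, *Gm49479* and *Espl1*.
Espl1: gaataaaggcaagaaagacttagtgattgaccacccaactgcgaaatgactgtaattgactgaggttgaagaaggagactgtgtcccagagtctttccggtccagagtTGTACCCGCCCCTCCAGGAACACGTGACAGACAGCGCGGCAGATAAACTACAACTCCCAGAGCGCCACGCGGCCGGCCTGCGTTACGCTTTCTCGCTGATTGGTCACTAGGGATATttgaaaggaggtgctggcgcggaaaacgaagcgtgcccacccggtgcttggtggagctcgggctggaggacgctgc
The window of *Fam135a*, at chr1:24100292-24100591 on the minus strand, stops 34 bases short of the start of its noncoding gene *Gm37580*.
Fam135a: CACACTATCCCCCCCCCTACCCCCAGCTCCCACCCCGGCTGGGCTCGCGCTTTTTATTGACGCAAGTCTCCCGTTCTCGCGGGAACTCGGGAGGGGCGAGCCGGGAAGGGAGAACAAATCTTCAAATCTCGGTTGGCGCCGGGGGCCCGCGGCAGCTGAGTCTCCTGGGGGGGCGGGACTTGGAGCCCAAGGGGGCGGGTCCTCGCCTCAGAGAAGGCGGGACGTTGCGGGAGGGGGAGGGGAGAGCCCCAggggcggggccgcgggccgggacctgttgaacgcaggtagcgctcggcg
The window of *Gm43868* itself, at chr6:113046122-113046421 on the minus strand, holds its own start and that of *Thumpd3*.
Gm43868: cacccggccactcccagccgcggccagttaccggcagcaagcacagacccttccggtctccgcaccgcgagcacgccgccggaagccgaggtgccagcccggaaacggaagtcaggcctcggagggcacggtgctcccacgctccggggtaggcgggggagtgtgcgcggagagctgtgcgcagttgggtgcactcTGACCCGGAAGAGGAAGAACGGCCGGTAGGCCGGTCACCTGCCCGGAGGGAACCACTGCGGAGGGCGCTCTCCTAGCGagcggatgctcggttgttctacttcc
The window of *Tgif2*, at chr2:156839757-156840056 on the plus strand, holds both starts of a pair in which the noncoding gene, *5730471H19Rik*, was among the most abundant and did not pass the test.
Tgif2: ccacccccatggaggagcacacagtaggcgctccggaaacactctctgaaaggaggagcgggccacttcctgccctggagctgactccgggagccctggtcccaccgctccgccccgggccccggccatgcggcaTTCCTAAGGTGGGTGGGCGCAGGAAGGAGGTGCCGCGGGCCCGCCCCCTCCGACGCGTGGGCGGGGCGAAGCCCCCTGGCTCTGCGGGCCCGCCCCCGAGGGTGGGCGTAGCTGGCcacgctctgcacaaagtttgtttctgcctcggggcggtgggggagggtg
The stretch of *Gm49479* and *Espl1* and that of *5730471H19Rik* and *Tgif2* are both 116 bases long in capitals, counting both starts, and that of *Gm43868* and *Thumpd3* is 78. For *Gm48242*, next after *Gm37580* in the order of increases, the nearest RefSeq start of its partner *Sipa1l1* lay 696 bp from the start in the count table, so its window is not shown.

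The starts of a pair were usually close. The distance between them had a median of 159 bp, with quartiles of 89 and 309 bp and a range of 1 to 2983 bp. It was at most 300 bp in 309 pairs, over 300 and up to 1000 bp in 64 and over 1000 bp in 47. The noncoding genes had a median exonic length of 1790 bases, against 2235 in 2352 lncRNA and TEC genes with the same minimum count that lay farther from coding starts. In 134 of them the annotated exons formed a single block, and in 286 there were 2 or more. They lay on all 19 autosomes and, with 7 genes, on the X chromosome. None of them and none of their coding partners was in the table of upstream regions in which the study counted PROMPTs, since that table kept only regions free of other annotated genes. It held 13176 of the 21528 coding genes.

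The shared promoters were rich in CpG. By symbol, 210 of the 420 noncoding genes had a RefSeq window, and in 175 its start lay within 200 bp of the start in the count table. For the coding partners, 335 pairs had a window and 307 had one within 200 bp, from 305 different windows. The median ratio of observed to expected CpG was 0.88 in the windows of the noncoding genes and 0.87 in those of the partners, against 0.57 over all 21263 protein-coding windows and 0.24 over all 11588 lncRNA windows. A ratio of at least 0.6 was found in 88.0% of the noncoding genes' windows, 91.1% of the partners' windows, 47.7% of all coding and 14.05% of all lncRNA windows. On either strand the GC box core GGGCGG was in 80.0% of the partners' windows and in 46.2% of all coding windows. The core of the ETS factor site, CGGAAG, was in 45.9% and 21.1%, the NRF1 site GCATGCGC in 7.87% and 3.52%, and the CCAAT box in 41.3% and 38.2%. The TATA box letters TATAAA were in 3.61% and 12.6%. The poly(A) signal AATAAA, here on either strand, was in 5.25% and 16.2%. Of the windows printed above, that of *Espl1* held the CCAAT box, the GC box core and the poly(A) signal, that of *Fam135a* the GC box core and the poly(A) signal, that of *Gm43868* the ETS core and that of *Tgif2* the GC box core. The partners of the noncoding genes that were called higher in cKO had 46 windows within 200 bp and a median CpG ratio of 0.88, against 0.87 in the 261 windows of the other pairs. In these 46 windows the ETS core was in 58.7% and the poly(A) signal in 13.04%, against 44.1% and 3.83% in the other pairs. In the 15 windows of the called noncoding genes themselves these shares were 26.7% and 0%, against 38.3% and 3.43% in the 175 windows of all noncoding genes. These shares are descriptions of the letters in the windows and were not tested. The windows of all coding and all lncRNA genes were not limited to genes with counts here. The windows of a pair often cover much of the same DNA.

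Divergent noncoding genes rose in *Dis3* cKO testes far more often than they fell. Of the 406 that passed the filter on low counts, 64 were called higher and 1 lower (edgeR quasi-likelihood test, adjusted p under 0.05). Over all 20043 genes tested, 4.42% were called higher and 3.48% lower. The other 14 had means of at most 12.6 raw counts, and 11 of them had the higher mean in cKO. At an unadjusted p under 0.05, 117 were higher and 8 lower. The median log2 fold change was 0.25, against -0.01 over all genes tested, and 311 of 406 (76.6%) were above 0, against 48.0% of all genes. Among those called higher the log2 fold change ranged from 0.40 to 4.68 with a median of 1.57. It was over 2-fold in 48, over 4-fold in 20 and over 8-fold in 5. In 65 of the 406 genes every cKO library lay above every control library, and in 0 every cKO library lay below, while this was so in 4.59% and 4.31% of all genes tested. Of the 64 genes called higher, 54 were among these 65.

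**Figure D1:**
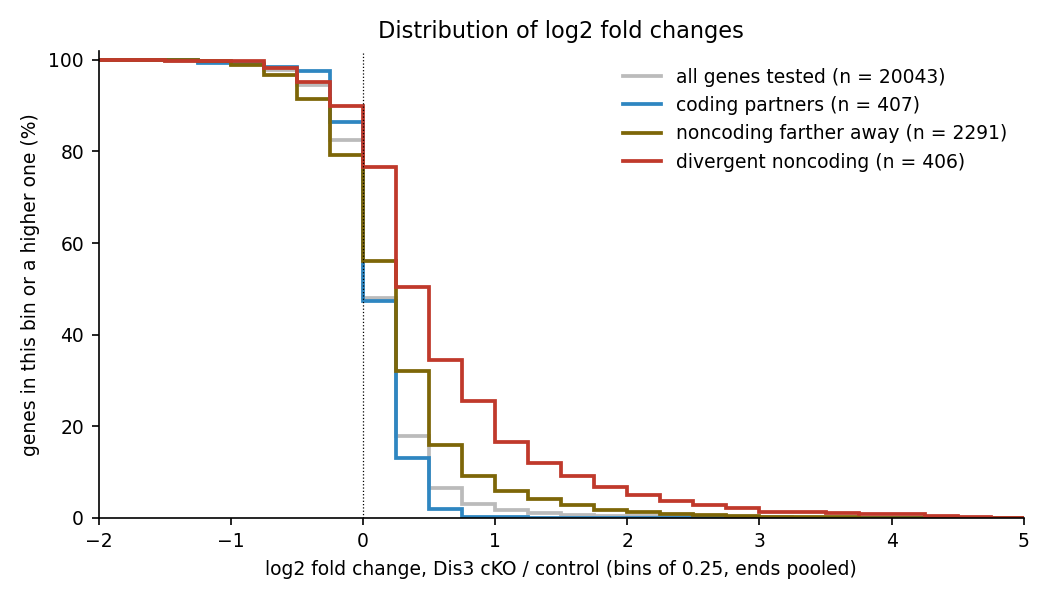
Share of genes (vertical axis, percent) whose log2 fold change between *Dis3* cKO and control was in a given bin of 0.25 or in a higher one (horizontal axis), for the divergent noncoding genes, the noncoding genes farther away, the coding partners and all genes tested. At a log2 fold change of 0 the curve of the divergent noncoding genes is at 76.6%, above those of noncoding genes farther away (56.2%), all genes (48.0%) and coding partners (47.4%).

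Because the count minimum was set over both groups, a gene could enter through its cKO libraries alone. With the minimum applied to the control libraries, 383 noncoding genes stayed, of which 376 were tested, 44 were called higher and 1 lower, with a median log2 fold change of 0.23. Of these 44, 28 were over 2-fold, 7 over 4-fold and 0 over 8-fold, and the largest log2 fold change was 2.95. The 37 genes that left held 20 of the 64 called higher, among them *Gm49479*, *Gm37580*, *Gm48242*, *4930578M07Rik* and *Platr23*, described next, which had control means of 2.6 to 9.6 raw counts and reached the minimum through their cKO libraries. *Gm14019*, *Gm26594* and *1700041G16Rik*, described further below, were also among these 20, with control means of 1.2, 3.4 and 9.4 raw counts. Of the 2352 noncoding genes farther from coding starts, 2291 were tested, 100 were called higher (4.36%) and 11 lower, with a median of 0.06. With the minimum applied to control libraries these numbers were 78 and 11 of 2212. Summed over the 420 genes, the normalized counts were 29306 ± 648 in control and 35403 ± 2302 in cKO (mean ± SD, n = 5 each), with ranges of 28356 to 29995 and 33303 to 39113 that did not overlap. The 64 genes called higher, which were selected on this difference, took 2930 ± 113 and 6248 ± 857 of these, and all others together 26375 ± 576 and 29155 ± 1457. The 37 genes under the minimum in control are kept in these sums, and their selection favored the cKO side.

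The largest increase was that of *Gm49479* (chr15:102295437-102296151, minus strand), whose start lies 115 bp upstream of *Espl1*, the gene of separase, the protease that cleaves cohesin at anaphase. It had 3.73, 2.83, 0, 5.75 and 0 normalized counts in the 5 control libraries and 86.4, 57.9, 62.6, 52.1 and 65.7 in the 5 cKO libraries. All cKO values were above all control values, and 2 control libraries had no read (log2 fold change 4.68, SE 0.51, adjusted p = 0.000236). On the same promoter *Espl1* had 1824 ± 119 and 1854 ± 259.9 (log2 fold change 0.02, adjusted p = 0.911), and its groups overlapped. Per length, *Gm49479* went from an RPKM (normalized counts per kilobase of exon, scaled to library size) of 0.0992 to 2.62, beside 6.01 and 6.11 for *Espl1*.

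*Gm37580* (chr1:24100625-24103424, plus strand), a TEC gene 284 bp upstream of *Fam135a*, had 4.66, 10.4, 5.04, 5.75 and 4.59 normalized counts in control and 152, 143, 97.3, 85.3 and 65.7 in cKO. Its cKO libraries all lay above its control libraries (log2 fold change 4.14, SE 0.33, adjusted p = 1.07e-05). *Fam135a* was at 1852 ± 92.4 and 1843 ± 168, with a log2 fold change of -0.01. *Gm48242* (chr12:82168850-82169105, minus strand), 215 bp upstream of *Sipa1l1*, a GTPase-activating protein for RAP, had 2.8, 10.4, 9.24, 8.63 and 6.43 in control and 142, 94.9, 95, 78.6 and 74.7 in cKO. Here too the groups were far apart (log2 fold change 3.67, SE 0.31, adjusted p = 1.85e-05), and *Sipa1l1* stayed at a log2 fold change of 0.07. *Gm48242* is the shortest of the noncoding genes, with 256 bases of exon, and its RPKM was 0.843 in control and 10.9 in cKO, beside 12.2 and 12.7 for its partner.

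*Gm43868* (chr6:113044035-113046148, minus strand), 77 bp upstream of the tRNA methyltransferase gene *Thumpd3*, had 14, 15.1, 16.8, 8.63 and 9.19 normalized counts in control and 136, 119, 99.5, 69.8 and 72.5 in cKO (log2 fold change 2.95, SE 0.28, adjusted p = 6.09e-05). *4930578M07Rik*, 158 bp upstream of *Nutf2*, which carries the GTPase RAN into the nucleus, had 5.59, 10.4, 5.88, 15.3 and 7.35 and then 87.6, 94.9, 72.7, 27.7 and 53.2 (log2 fold change 2.91, adjusted p = 0.000967). The cKO libraries of the latter were more spread, from 27.7 to 94.9, but stayed above the controls. *Platr23*, a transcript named for its link to pluripotency, lies 251 bp upstream of the zinc finger transcription factor gene *Zfp281*. It had 13, 6.6, 13.4, 0 and 10.1 in control and 88.9, 34.2, 57, 33.2 and 69.1 in cKO (log2 fold change 2.67, adjusted p = 0.00714), with no read in control replicate 4.

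The 10 largest increases were taken among called genes without overlap whose mean reached 30 normalized counts, and 4 more belong to them. *Gm45546*, the farthest of the 10 from its partner with 1553 bp to *Ssbp4*, went from 21 ± 6.06 to 105 ± 23.4 (log2 fold change 2.32, adjusted p = 0.000167). *Gm40332*, at *Sfswap*, a gene of a splicing regulator, went from 13.6 ± 7.69 to 60 ± 26.8 (2.13 on the log2 scale, adjusted p = 0.00665). *Gm43231*, at *Msi1*, which encodes the RNA-binding protein Musashi-1, went from 34 ± 14.2 to 148 ± 43.4 (2.12, adjusted p = 0.0011). *Gm43403*, at *H2az1*, which encodes the histone variant H2A.Z, went from 14.4 ± 4.04 to 60.6 ± 13.6 (2.07, adjusted p = 0.00115). All 10 calls held when any library was left out. The coding partners of the last 4 did not pass the test, with log2 fold changes of -0.14 for *Ssbp4*, -0.02 for *Sfswap* and 0.17 for *Msi1*. That of *H2az1* was -0.38 (adjusted p = 0.0664), and the alternative test, DESeq2, gave it an adjusted p of 0.0329. Of the 5 genes over 8-fold, *Gm14019* at *Golm2* and *Gm44064* at *Cnbp* fell under the minimum of 30 normalized counts and are named after their values were seen. *Gm14019* had 0, 1.89, 0, 3.83 and 0 in control and 29.6, 33.2, 28, 15.5 and 20.4 in cKO, with 3 control libraries at 0 (log2 fold change 4.37, adjusted p = 0.00218), and *Gm44064* had 5.59, 2.83, 0.84, 0.958 and 7.35 and 59.2, 49.4, 43.6, 16.6 and 20.4 (3.39, adjusted p = 0.00303).

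**Figure D2:**
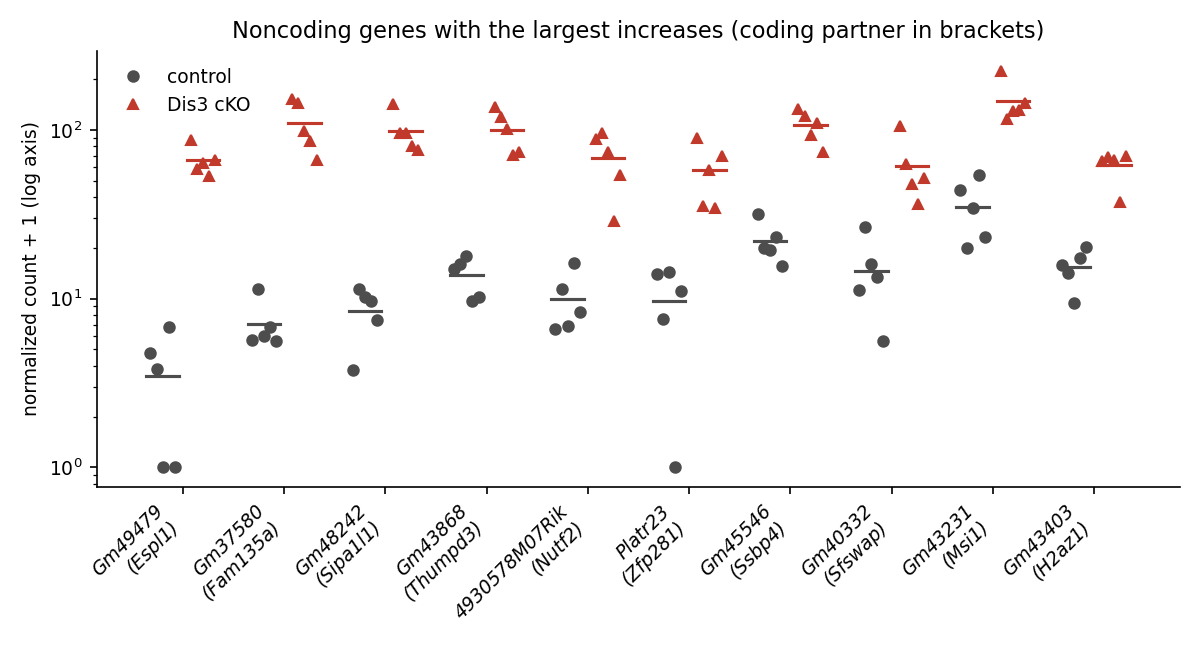
Normalized counts plus 1 (log axis) of the 10 divergent noncoding genes with the largest increases, with 1 point for each of 5 control (circles) and 5 *Dis3* cKO (triangles) libraries and a line at each group's mean; the coding partner is in brackets. In each gene all triangles lie above all circles, from 65.7 to 152 against 4.59 to 10.4 in *Gm37580* and from 115 to 223 against 18.9 to 52.7 in *Gm43231*.

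The only divergent noncoding gene called lower was *Eldr*, which starts 93 bp from *Fbxo48* and is outside the rule for named genes since its groups overlapped. It had 103, 109, 103, 46 and 44.1 normalized counts in control and 54.3, 22.8, 23.5, 19.9 and 23.8 in cKO. cKO replicate 1 lay above control replicates 4 and 5 (log2 fold change -1.50, SE 0.35, adjusted p = 0.0195). The call was lost without control replicate 1 or 2 or cKO replicate 2 or 5, with an adjusted p of at most 0.0537. *Fbxo48* was at means of 96.6 and 112 (log2 fold change 0.21, adjusted p = 0.545).

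The share called higher varied with the kind of noncoding gene. Where the starts were at most 300 bp apart, 53 of 300 tested genes were called higher, with 6 of 59 at over 300 and up to 1000 bp and 5 of 47 beyond, and the median log2 fold changes were 0.31, 0.23 and 0.18. Of TEC genes 18 of 60 were called higher and of lncRNA genes 46 of 346, whereas farther from coding starts 25 of 1031 TEC and 75 of 1260 lncRNA genes were. Genes with a single exonic block were called in 35 of 130 cases (median 0.50) and genes with 2 or more blocks in 29 of 276 (median 0.20). Genes whose exons overlapped those of another gene on either strand were called in 10 of 113 cases and genes free of such overlap in 54 of 293. In 3 equal groups by control level per length, 29 of 132, 19 of 134 and 16 of 140 were called from the lowest to the highest. The control libraries enter both this order and the fold change, and genes with few control reads met the count minimum only where cKO was high. The 37 genes under that minimum in control, with 20 of the 64 calls, are kept in all counts by class. In 3 equal groups by the partner's level, 17 of 131, 24 of 136 and 23 of 139 were called. The differences between classes were not tested, and the classes overlap.

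**Figure D3:**
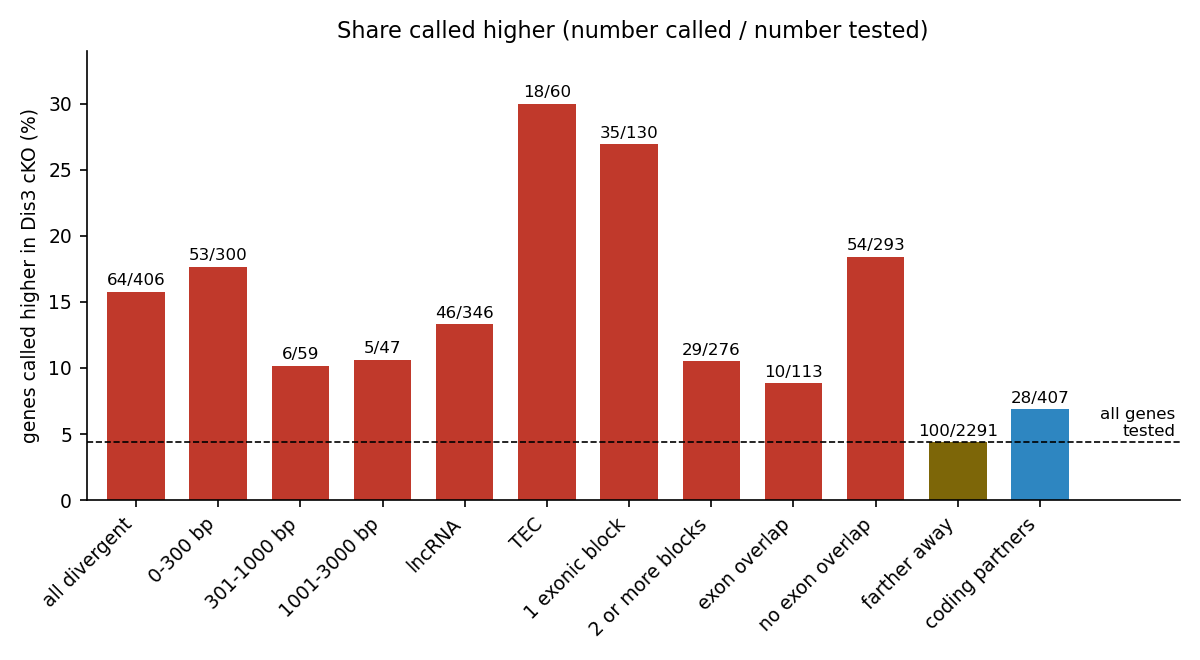
Percent of tested genes called higher in *Dis3* cKO (bars), with the number called over the number tested, for the divergent noncoding genes as a whole and by distance, biotype, exonic blocks and exon overlap, and for the noncoding genes farther away and the coding partners. The dashed line marks the 4.42% of all genes tested, which the bar of noncoding genes farther away meets and the bars of TEC genes (18 of 60) and of genes with a single exonic block (26.9%) exceed the most.

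**Figure D4:**
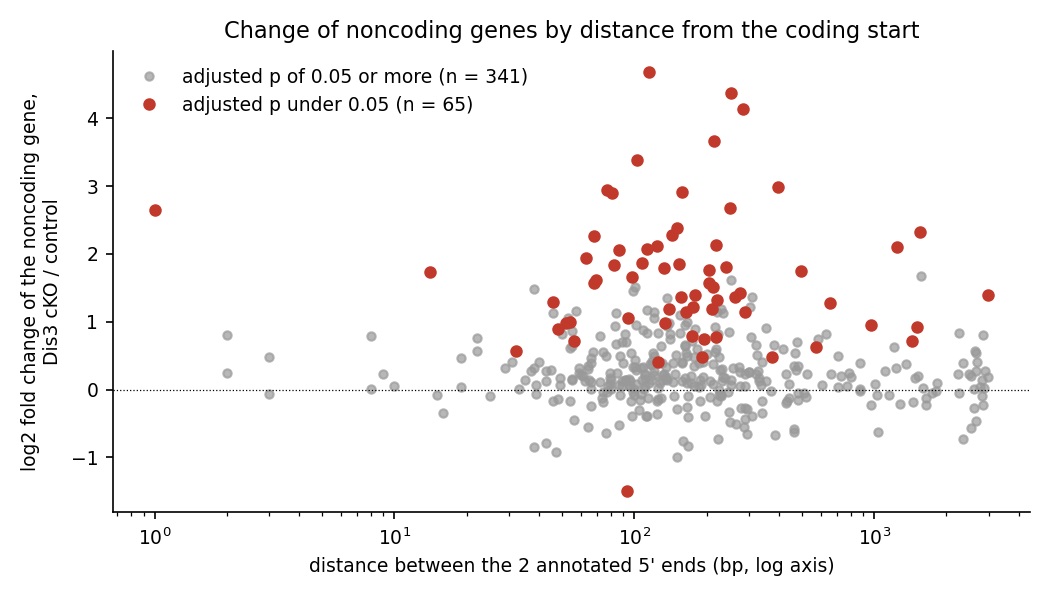
Log2 fold change of each tested divergent noncoding gene (vertical axis) by the distance between its start and that of its coding partner (horizontal axis, bp, log scale), with 1 point per gene and those past the test in red. The 64 genes called higher have a median distance of 161 bp, beside 159 bp for the genes not called, and the 1 gene called lower is *Eldr* at 93 bp.

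Within each cluster of libraries the median of the noncoding genes lay above that of all genes. Fitted on replicates 1 to 3 alone, 60 of 408 noncoding genes (14.7%) were called higher and 2 lower, while 4.80% of all genes tested there were called higher and 2.74% lower. Their median log2 fold change was 0.34, against -0.02 over all genes, and 76.5% were above 0, against 47.0%. Fitted on replicates 4 and 5 alone, 44 of 400 (11%) were called higher and 4 lower, while 11.7% of all genes tested there were called in each direction. The share called higher was thus not above that of all genes in replicates 4 and 5. The median there was 0.24, against -0.01 over all genes, and 66.5% were above 0, against 49.3%. These fits share no library, but the count minimum that took the genes was set over all 10 libraries, so neither is apart from that selection. The 37 genes under the minimum in control, which held 20 of the 64 called higher, are kept in these numbers. Of the 60 genes called in replicates 1 to 3, 58 were tested in replicates 4 and 5, where 56 were above 0 and 24 were called higher, with a median log2 fold change of 1.15. Of the 44 genes called in replicates 4 and 5, all 44 were tested in replicates 1 to 3, where 42 were above 0 and 24 were called higher, with a median of 1.16.

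The change itself differed between the clusters in 4 of 406 noncoding genes by a test of the interaction (adjusted p under 0.05). These 4 are named after their values were seen. The share over all genes was not counted for this test, so their number is not read as a trait of divergent noncoding genes. *2610507I01Rik*, at the mitochondrial ribosomal protein gene *Mrpl55*, had 113, 93.3, 115, 0 and 3.68 normalized counts in control and 246, 223, 254, 101 and 103 in cKO. Control replicates 4 and 5 were almost without reads, and the log2 fold change was 1.17 in replicates 1 to 3 and 5.68 in replicates 4 and 5 (interaction adjusted p = 6.63e-05). *1700041G16Rik*, at *Ap3m2*, had 4.66, 9.43, 10.1, 11.5 and 7.35 in control and 67.9, 62.7, 61.5, 5.54 and 13.6 in cKO. It was raised in cKO replicates 1 to 3 (2.96) and not in 4 and 5 (0.03, interaction adjusted p = 0.0301). Its call over all libraries was lost without control replicate 1, 2 or 5 or cKO replicate 1, 2 or 3 (adjusted p of at most 0.0697). *4833418N02Rik* at *Ttc7* (-0.54 and 2.34) and *4930558J18Rik* at *1700066M21Rik* (-0.01 and -1.55) did not pass the test over all libraries.

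Of the 6 divergent noncoding genes with the highest levels per length, 2 were called higher and 4 did not pass the test. Over all genes tested 4.42% were called higher, and 6 genes are too few to be set against that share. Median RPKM over the 420 was 0.514 in control and 0.724 in cKO, while that of their partners was 9.82 and 9.76, and 24 of the noncoding genes lay above their partner in control. The 37 noncoding genes that met the count minimum only through cKO are kept in these medians. The highest level per length was that of *Gm13375*, 173 bp upstream of *Arhgap21*, at an RPKM of 26.6 in control and 28.3 in cKO. Its normalized counts were 772, 848, 721, 804 and 790.2 and 691, 800.4, 879, 916 and 904, which overlapped (log2 fold change 0.09, adjusted p = 0.592). *5730471H19Rik*, upstream of the homeobox repressor gene *Tgif2*, had 594, 543, 660.0, 588 and 549 in control and 553, 676, 783, 541 and 587 in cKO, again overlapping (0.10, adjusted p = 0.646). *2310010J17Rik*, at the clathrin assembly gene *Picalm*, had a log2 fold change of -0.09 and *Brip1os*, at the DNA helicase gene *Brip1*, one of 0.06, neither of them past the test. The highest counts of the group were those of *Brip1os*, 2348 to 2552 in control and 2350.2 to 2774 in cKO.

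The 2 called higher were *Gm49785* and *Cerox1*. *Gm49785*, a lncRNA gene 46 bp from *Thap7*, had 69, 127, 84, 132 and 97.4 normalized counts in control and 323, 273, 235, 228 and 195 in cKO, with no overlap (log2 fold change 1.30, SE 0.20, adjusted p = 0.00218), so that its RPKM went from 8.72 to 21.4. *Cerox1*, a lncRNA known for raising the transcripts of mitochondrial complex I, lies 125 bp from *Sox8*, a transcription factor gene active in Sertoli cells. It had 327, 413, 344, 349.8 and 389 in control and 517, 474, 479.7, 453 and 487 in cKO (log2 fold change 0.40, SE 0.09, adjusted p = 0.0179), and the call was lost without control replicate 1 (adjusted p = 0.0537). *Sox8* was called higher as well (0.41, adjusted p = 0.0455), a call lost in 8 of 10 fits that left out a library. Of the Sertoli markers given above 1 of 8 was called higher, and their part in these values was not tested.

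None of the 10 most abundant genes named with the ending "os" was called, while 4.42% of all genes tested were called higher and 3.48% lower. With 10 genes, this count is not read as a trait of "os" genes. Their log2 fold changes ranged from -0.39 in *Rab26os*, which faces *Traf7*, to 0.54 in *Ttc39aos1*. *Wt1os*, 19 bp from the Sertoli and kidney transcription factor gene *Wt1*, had 264, 264, 220.02, 252.1 and 290.4 normalized counts in control and 258, 224, 226, 304 and 307 in cKO. The groups overlapped (log2 fold change 0.03, adjusted p = 0.918). *Cep83os* was at 499 ± 47.9 and 517 ± 39, *Etaa1os* at 92.4 ± 13.9 and 95.5 ± 17.8 and *Tmem147os* at 75.3 ± 16.4 and 79.1 ± 23.4. *Stamos* (0.54, adjusted p = 0.205) and *Med9os* (0.30, adjusted p = 0.467) had higher means in cKO, and *Map2k3os* (-0.26, adjusted p = 0.566) a lower one, without passing the test. Of the "os" genes with lower counts than these 10, *Tnfsf13os* was called higher (0.998, adjusted p = 0.017) and is described below with *Senp3*.

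Among lncRNA genes known by name, *Gt(ROSA)26Sor*, the source of the promoter used in many knock-in mice, was called higher. It starts 32 bp from *Setd5* and had 145, 154, 156, 152 and 121 normalized counts in control and 199, 219, 265, 203 and 193 in cKO, with no overlap (log2 fold change 0.56, SE 0.13, adjusted p = 0.0201). The call was lost without control replicate 5 or cKO replicate 3 (adjusted p of at most 0.0516). *Fendrr*, a lncRNA of heart and body wall development at *Foxf1*, had 6.43 to 34.9 in control and 11.3 to 28.4 in cKO (-0.21, adjusted p = 0.813). *Lhx1os*, at the homeobox gene *Lhx1*, had 9.24 to 36.3 and 12.2 to 36.1 (-0.14, adjusted p = 0.865). Both overlapped between groups.

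Coding partners were called in either direction. Of 407 tested, 28 (6.88%) were higher and 30 (7.37%) lower, against 4.50% and 4.30% of all coding genes, with a median log2 fold change of -0.01. These counts depended on single libraries and on the model: without control replicate 1 or without control replicate 2, 13 partners (3.19%) were called higher, against 2.45% and 2.37% of all coding genes there. With the replicate number as a block they were 53 higher and 49 lower of 407, against 8.25% and 8.18% of all coding genes. None of those called higher was over 2-fold. For the 63 tested partners of noncoding genes called higher, the numbers were 5 higher and 8 lower, the median was -0.06 and the range -0.43 to 0.62. As a share of the partner's RPKM, these noncoding genes had a median of 2.87% in control and 12.2% in cKO, of which the rise follows from their selection. The 20 noncoding genes called higher that were under the count minimum in control were not left out here.

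**Figure D5:**
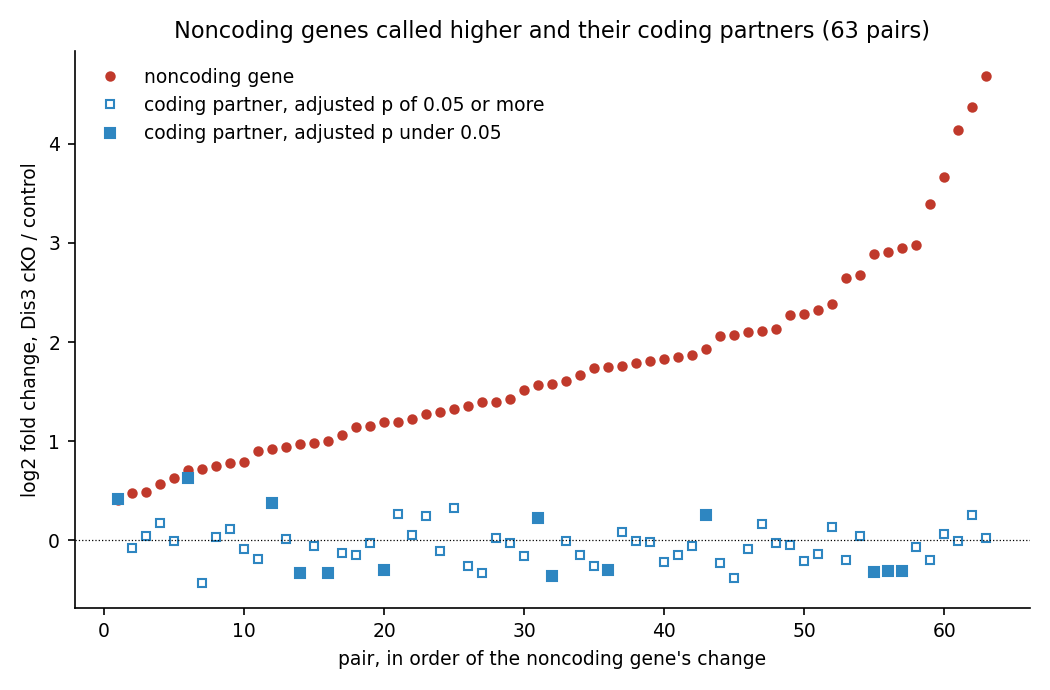
Log2 fold change between *Dis3* cKO and control (vertical axis) of the noncoding genes called higher (circles) and of their coding partners (squares, filled where called) for the 63 pairs with both tested, in order of the noncoding gene's change (horizontal axis, rank). The circles run from 0.40 to 4.68, and the squares stay between -0.43 and 0.62, with 5 called above and 8 called below 0. Noncoding genes under the count minimum in control are kept.

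In 8 pairs the noncoding gene was called higher and the coding partner lower. *Thumpd3*, the partner of *Gm43868*, had 2120.1, 2052, 2005, 2393 and 2334 normalized counts in control and 1813, 1726, 1696, 1886 and 1673 in cKO, with no overlap (log2 fold change -0.31, SE 0.07, adjusted p = 0.0165). *Prpf3*, which encodes a protein of the spliceosomal U4/U6 particle, had 2675, 2885, 2708, 3192 and 2986 and 2375, 2457, 2469, 2203 and 2101 (-0.32, adjusted p = 0.0164). Its noncoding gene *Gm26594*, 81 bp away, had 4.66, 0, 5.04, 1.92 and 3.68 in control and 30.9, 19, 26.8, 14.4 and 28.3 in cKO (2.89, adjusted p = 0.00476). *Gm26594* was under the count minimum in control and met it through its cKO libraries. *Cep55*, needed for the last step of cell division, had 1539 to 1796 in control and 1263 to 1397 in cKO (-0.30, adjusted p = 0.0165), and *Ncapg*, a condensin subunit gene, had 1475 to 1684 and 1141 to 1342 (-0.30, adjusted p = 0.0171). The noncoding gene of *Ncapg*, *1600023N17Rik*, went from 39.6 ± 10.6 to 90.6 ± 23.6 (1.19, adjusted p = 0.00991). The calls of *Thumpd3*, *Prpf3*, *Cep55* and *Ncapg* held when any library was left out.

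In the other 4 pairs of this kind the partner's call depended on single libraries. *Cacybp*, named after its values were seen, had means of 6501 and 5072 (-0.36, adjusted p = 0.0459) and lost its call in 8 of 10 fits that left out a library, with adjusted p-values of at most 0.109. Its noncoding gene *4933417C20Rik*, 68 bp away, went from 92.6 ± 28.3 to 276 ± 36.2, without overlap, and lost its call in none (1.58, adjusted p = 0.000681). *Nutf2* (654 to 751 and 493 to 635; -0.31, adjusted p = 0.0394) lost its call in 8 of 10 fits that left out a library, keeping it only without control replicate 4 or cKO replicate 2. *Senp3*, a SUMO protease gene whose noncoding neighbor is *Tnfsf13os*, had 1067 to 1335 and 833 to 983 (-0.34, adjusted p = 0.0257) and lost its call without control replicate 4 or 5 or cKO replicate 1 or 2 (adjusted p of at most 0.067). *Tmem30a*, the gene of a flippase subunit, (-0.33, adjusted p = 0.0423) lost it in 8 of 10 such fits, keeping it only without control replicate 3 or cKO replicate 4. Its noncoding gene *4930429F24Rik* (0.98, adjusted p = 0.042) lost its call in all 10, with adjusted p-values of 0.0516 to 0.0915. *I830134H01Rik*, the noncoding gene of *Cep55*, (1.74, adjusted p = 0.041) kept its call only without control replicate 2 or 3. *Tnfsf13os* had 44.7, 54.7, 31.9, 35.5 and 24.8 in control and 87.6, 68.4, 67.1, 83.1 and 77 in cKO, with no overlap and a call that held whichever library was left out (log2 fold change 0.998, adjusted p = 0.017).

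In 5 pairs both were called higher. They were *Sox8* with *Cerox1*, given above, *Med14* (0.22) with *Gm14634* (1.57), named after their values were seen, and 3 more. *Med14* lost its call whichever library was left out, and *Gm14634* in none of these fits. *Sez6* had 811, 795, 964, 733 and 788 normalized counts in control and 994, 1189, 1021, 985 and 1112 in cKO (0.37, adjusted p = 0.0212), and its noncoding gene *Gm11190*, 1512 bp away, 40.1 ± 9.2 and 76.2 ± 10.6 (0.92, adjusted p = 0.0187). *Kmt2d*, the gene of a histone H3 lysine methyltransferase, had 14141, 14941, 20069, 13045 and 13185 and 22324, 27939, 28960.2, 17337 and 19556 (0.62, adjusted p = 0.0218). Its groups overlapped through control replicate 3. *5730414N17Rik*, 1440 bp from *Kmt2d*, had 68.5 ± 18.3 and 112 ± 13.9 (0.71, adjusted p = 0.0471). *Cep350*, of the centrosome, and its noncoding gene *Gm9694* had log2 fold changes of 0.25 (adjusted p = 0.0283) and 1.93 (adjusted p = 0.0277). Of the 10 fits that left out a library, *Sez6* lost its call in 6 (control replicates 1, 2, 4 and 5 and cKO replicates 2 and 5), *Kmt2d* in 6 (control replicates 1, 2, 4 and 5 and cKO replicates 2 and 3), *Cep350* in 7 (control replicates 1, 2, 4 and 5 and cKO replicates 1 to 3) and *Gm9694* in 6 (control replicates 1 to 3 and cKO replicates 2, 4 and 5). *5730414N17Rik* lost it in 8, all but control replicates 3 and 4 (adjusted p of at most 0.111), and *Gm11190* in none (adjusted p of at most 0.0481).

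By the kind of coding partner, the noncoding genes that face developmental transcription factors by symbol had 2 called of 11, *Gm49492* at *Pou6f1* (log2 fold change 0.78, adjusted p = 0.0124) and *Cerox1*, with a median of 0.03. *Gm28793* at *Hoxd9* (0.75, adjusted p = 0.562), *BC006965* at *Sox9* (-0.33, adjusted p = 0.586) and *Gm14662* at *Sox3* (-0.72, adjusted p = 0.363) did not pass. Those that face zinc finger genes had 1 called of 14, *Platr23*, with a median of 0.28. Those that face ribosomal and RNA processing genes had 1 of 10, *Gm47257* at the RNA helicase gene *Ddx21* (1.61, adjusted p = 0.0270), with a median of 0.17. Among the coding partners themselves, the first kind had *Sox8* called higher and *Sox3* lower (-1.36, adjusted p = 0.00222), the second none, and the third 3 called lower, *Eif5a2* (-0.47), *Rps3a1* (-0.32) and *Rpl34* (-0.76). Over all genes tested 4.42% were called higher, and over all coding genes 4.50% were higher and 4.30% lower. With 10 to 14 genes each, these shares were not set against each other.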

How the data were processed

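RNA pooled from both testes of 1 mouse made each of 10 strand-specific libraries, primed with random and poly(T) oligonucleotides and depleted of ribosomal RNA. The deposited gene table holds raw integer counts per gene, which the authors made with cutadapt, HISAT2 and featureCounts. Its header names featureCounts 1.6.4 with the strand setting s1 and GENCODE M18, and the processing notes name GRCm38.p5, whereas the methods name a later build. Names and biotypes came from GENCODE M39 through the gene IDs, with 50129 of 54232 genes named. The deposited counts of upstream regions were searched for members and partners only. Groups came from the genotype labels, and no column of counts was left unused.

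Members, lists and tests were chosen with earlier results of these data known. Genes were filtered by filterByExpr (min.count of 10, min.total.count of 15), scaled by TMM and tested over all 20043 genes with the quasi-likelihood test of edgeR 4.0.16 in R 4.3.3 (two-sided, no covariate, Benjamini-Hochberg, threshold 0.05). "Normalized counts" are scaled to the mean effective library size. The methods of the study use DESeq2, here (version 1.42.0) an alternative. A partner is the coding gene with the nearest start in the window, and 1 partner faced 3 members. The replicates are separate mice, and the least different pair within a group still differed beyond sampling noise (chi-square per degree of freedom 4.11). The common biological coefficient of variation was 0.172.

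Named genes are, among called members without overlap that reach a mean of 30 normalized counts, the 10 that rose most and up to 5 that fell most (none qualified), the 6 highest levels per length, up to 10 "os" genes by count, up to 10 pairs with both members called, and lncRNA genes from a list of known names. Promoter windows are those of RefSeq on GRCm38.p6. Of the members, 17 share exonic bases with another gene on the same strand and 109 on the opposite strand, and reads shared on the same strand cannot be told apart. Alternatives were DESeq2, its size factors in edgeR, no filter, the replicate number or the library cluster as a term, each cluster alone, each library left out, a window of 1000 bp, the count minimum in control alone, and members without exon overlap.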

Additional observations from a re-analysis of the deposited data

Results flagged for a closer look

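In 62 named genes the 5 libraries of each group were searched for a value standing apart from the other 4 by Dixon's ratio, and chance alone would give about 1 in 20 groups. Of 124 groups 8 had such a value. Among noncoding genes, control replicate 2 was highest for *Gm37580* (10.4 normalized counts, next 5.75), cKO replicate 1 was highest for *Gm43231* (223, next 144), *4930429F24Rik* (58.0, next 42.1) and *Eldr* (54.3, next 23.8), cKO replicate 5 was highest for *5730414N17Rik* (137, next 106), and cKO replicate 4 was lowest for *Gm43403* (36.6, next 64.2). Among coding partners, control replicate 5 was highest for *Sfswap* (3039, next 2729) and control replicate 3 for *Kmt2d* (20069, next 14941).

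The change between cKO and control differed between replicates 1 to 3 and replicates 4 and 5 in 4 noncoding genes, by edgeR's test of the interaction adjusted over all genes. The adjusted p was 6.63e-05 for *2610507I01Rik*, 0.0202 for *4833418N02Rik*, 0.0276 for *4930558J18Rik* and 0.0301 for *1700041G16Rik*. The cause of these differences was not tested, and the share over all genes was not counted for this test.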

How the results depend on the processing

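The number of divergent noncoding genes called higher, 64 over all libraries, was 79 with DESeq2, 65 with its size factors, 56 without a filter, 75 with a replicate block, 82 with the library cluster as a term, 60 in replicates 1 to 3, 44 in replicates 4 and 5, 59 within 1000 bp, 44 with the minimum in control alone, 54 without exon overlap, and 45 to 61 with a library left out. Of all genes tested, 4.42% were called higher in the main fit, 2.84% with DESeq2, 4.81% with its size factors and 1.67% without a filter. The share was 7.43% with the replicate block, 8.84% with the cluster term and 2.52% to 5.75% with a library left out. In replicates 1 to 3 it was 4.80%, and in replicates 4 and 5 it was 11.7%. Higher counts with the block and the cluster term are thus not read as a larger difference from other genes. All 64 were also called by DESeq2, 63 with the replicate block and 38 without any 1 library. The number called lower, 1, was 2 with DESeq2, without a filter, with the replicate block, with the cluster term and in replicates 1 to 3, 4 in replicates 4 and 5, and 0 to 1 with a library left out (0 without control replicate 1 or 2 or cKO replicate 2).

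Counts of coding partners moved more. The 28 called higher became 53 with the replicate block, 56 with the cluster term, 67 in replicates 4 and 5 and 13 to 38 with a library left out (13 without control replicate 1 or 2, 16 without control replicate 5 or cKO replicate 2 or 3). The 30 called lower became 49 with the block, 60 with the cluster term, 13 in replicates 1 to 3, 79 in replicates 4 and 5 and 19 to 33 with a library left out (19 without control replicate 5). Of all coding genes, 8.25% were called higher and 8.18% lower with the block, 9.70% and 10.3% with the cluster term, and 14% and 14.5% in replicates 4 and 5. The cause was not tested. No label ties same-numbered control and cKO libraries to a shared litter or day. Their deviations from the group means correlated at 0.0959, 0.0826, 0.183, 0.182 and 0.135 for replicates 1 to 5, beside a mean of 0.101 between other numbers of the same cluster and -0.122 across clusters, and not every library was closest to its own number.

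Log2 fold changes that turned sign belonged to genes that did not pass the test. In replicates 4 and 5 alone they were -0.00542 for *5730471H19Rik*, -0.0925 for *Etaa1os*, -0.476 for *Tmem147os*, 0.369 for *Fendrr*, -0.136 for *Espl1* and 0.13 for *Fam135a*. In replicates 1 to 3 alone they were 0.022 for *2310010J17Rik*, -0.0799 for *Wt1os*, 0.377 for *Lhx1os*, -0.535 for *4833418N02Rik* and 0.028 for *Sfswap*. *Fam135a* was at 0.00528 in DESeq2 and 0.00635 with its size factors. With a library left out, ranges spanned 0 for *Wt1os* (-0.0298 to 0.0844), *Etaa1os* (-0.0491 to 0.112), *Tmem147os* (-0.0693 to 0.21), *Fendrr* (-0.448 to 0.0107), *Lhx1os* (-0.36 to 0.031), *Espl1* (-0.0417 to 0.0749), *Fam135a* (-0.0523 to 0.028) and *Sfswap* (-0.0429 to 0.0141). Noncoding genes with few reads have wide errors, and 22 of the 64 had control means under 10 normalized counts, so that sizes of change are less certain there. Of the 64, 20 had control means under 10 raw counts and met the minimum through their cKO libraries. That selection favored a rise.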
